A study of Homo sapiens with 18 samples.

Results

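Olfactory receptors are G protein-coupled receptors that bind odorants at the cilia of sensory neurons in the nose. Each such neuron is known to express 1 receptor gene, and the receptors signal there through the G protein subunit GNAL, the adenylate cyclase ADCY3 and a cyclic nucleotide-gated channel. They form a large gene family that most other tissues express little or not at all, with some known exceptions such as OR51E1 and OR51E2 in prostate. Receptors of families 51 to 56 are called class I and are related to those of fish, and all others are class II.

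The olfactory receptor (OR) probe sets were those annotated with a single gene symbol of the form OR, family number, subfamily letters and member number, with no pseudogene suffix. There were 107 such probe sets for 82 genes, of 54675 probe sets on the Affymetrix HG-U133 Plus 2.0 array and of 19775 genes with a probe set of 1 symbol. All 82 genes were protein-coding in RefSeq (GRCh38.p14) and kept their symbols. Class I supplied 14 probe sets for 11 genes and class II 93 probe sets for 71 genes, in 15 families together. Family 2 had the most genes (18), followed by family 1 (12) and families 10 and 51 (9 each).

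The RNA came from untreated FTC-133 cells, an established human line from a follicular thyroid carcinoma, and aliquots of 1 preparation were hybridized to 3 arrays, A, B and C. Array A was stained and scanned with no stringent washing cycle before staining, array B after 2 cycles and array C after 6. Arrays A and B were then washed and scanned again after 2, 7 and 17 additional cycles, all arrays were stained a second time, and the procedure was repeated as a second series. Scans A1 to A4, B1 to B4 and C1 belong to the first series, and A5 to A8, B5 to B8 and C2, the re-labelled scans, to the second. All 18 scans therefore hold the same RNA, and every spread and p-value given here is technical. No biological replicate was available, and in a bulk RNA few expressing cells cannot be told apart from little RNA per cell.

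Values are MAS5 signals, one summary of probe brightness per probe set and scan, and each scan was scaled so that its trimmed mean was between 250.02 and 250.06. A signal is therefore a level relative to the other probe sets of the scan. Signals of different probe sets also reflect how well their probes bind, so the percentiles below rank brightness, not transcript number. Thyroid markers gave a mixed picture. One of 8 probe sets of the transcription factor PAX8 (121_at, 728 to 1310) and one of 2 of NKX2-1 (211024_s_at, 533 to 926) were bright in every scan. Thyroglobulin (TG) ran from 12.1 to 365 and the transcription factor FOXE1 from 3.02 to 139, and the thyrotropin receptor TSHR was not above the median of all probe sets in any scan with any of its probe sets. In all, 3 of 16 thyroid marker probe sets (18.8%, against 26.7% of all probe sets) were above that median in all 18 scans, and the median percentile of the 16 was 40.9, against 47.9 over all. The list as a whole was thus not brighter than other probe sets.

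OR probe sets were dim in every scan. In scans A1 to A4 their median signals were 83.3, 55.0, 46.8 and 46.4. In scans A5 to A8, after re-staining, they were 61.8, 45.1, 49.0 and 49.8. On array B it was 27.1, 23.1, 21.2 and 21.0 in scans B1 to B4 and 26.6, 25.8, 17.6 and 19.7 in scans B5 to B8. On array C it was 18.5 in C1, washed by the standard number of cycles, and 23.1 in C2, after 12 total cycles and re-staining. The median over all probe sets was highest on A1 (136), lowest on C1, and exceeded the OR median in each of the 18 scans. On the log2 scale the OR median lay below it by the least on A1, where the difference was -0.71, and by the most on B7, where it was -1.58.

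**Figure D1:**
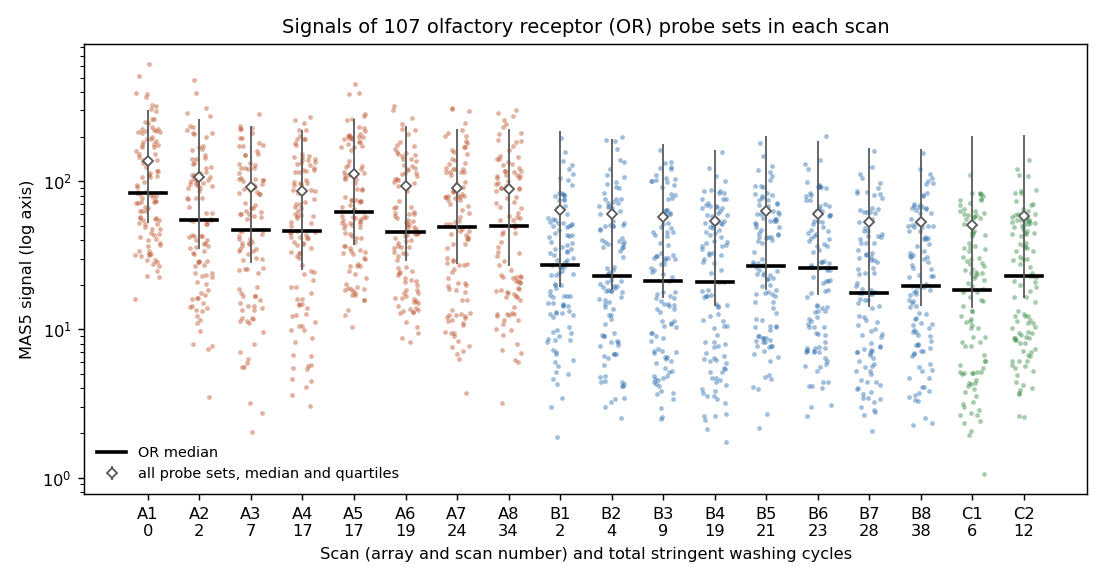
MAS5 signals (log axis) of the 107 OR probe sets, 1 point each, in the 18 scans, with the total number of stringent washing cycles under each scan. Black lines are OR medians, and diamonds with bars are the median and quartiles of all 54675 probe sets. OR medians lie between 17.6 and 83.3 and are highest on array A.

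Ranked among all probe sets of the same scan, the median OR probe set lay between the 28.5 and the 38.2 percentile. Array A gave 33.8 to 38.2, array B 28.5 to 31.8 and array C 28.9 to 30.5. The ranges of arrays A and B did not overlap. Between 17 and 38 OR probe sets were above the median of all probe sets, which is 15.9% (C2) to 35.5% (A1 and A8). When all signals of C1 were cut into 10 groups of equal size, the groups held, from the dimmest up, 27, 11, 18, 18, 10, 17, 6, 0, 0 and 0 OR probe sets. On A1 the groups held 15, 10, 12, 19, 13, 13, 14, 6, 5 and 0.

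No OR probe set reached the brightest 10% of any scan, which 13.3% of all probe sets did at least once. The brightest OR signal was 613 for OR1I1 on A1, at percentile 89.1. In the brightest 20% of at least 1 scan were 8 OR probe sets (7.48%, against 29.3% of all). Those 8, chosen by this value, were OR1I1, OR5L2, OR51B2, OR51B6, OR1D2, OR2B6, OR1J2 and OR8B2, and each peaked on array A. The highest signal was on array A for 91.6% of the OR probe sets and 69.8% of all.

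**Figure D2:**
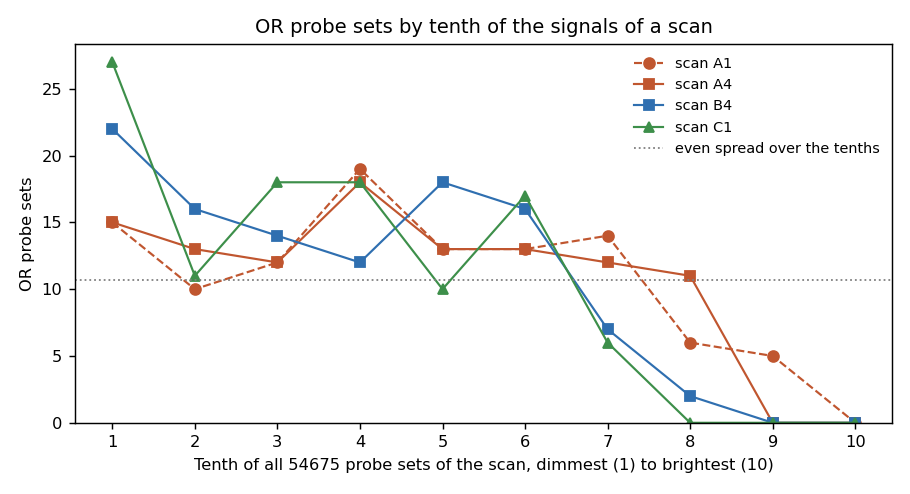
Number of OR probe sets (vertical) in each of 10 groups of equal size of the 54675 signals of a scan, from dimmest to brightest (horizontal), for scans A1, A4, B4 and C1. The dotted line is an even spread of the 107 probe sets. The brightest group holds 0 OR probe sets in each of the 4 scans, and the dimmest holds 27 on C1 and 15 on A1.

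Only 3 OR probe sets (2.8%, against 26.7% of all probe sets) were above the median of all probe sets in all 18 scans. OR1I1 (234403_at) was the most persistent. It had signals of 613, 314, 226, 246, 387, 321, 297 and 257 on array A, 197, 189, 163, 158, 147, 90.8, 125 and 95.4 on array B, and 111 and 108 on array C. Array A was above both other arrays in every scan, and the median over 18 scans was 193. OR1I1 lies between CASP14 and SYDE1 and overlaps no annotated gene.

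OR5L2 (1567285_at) had a similar median, 192. Its signals were 517, 288, 229, 203, 453, 301, 221 and 242 on array A, between 75.5 and 201 on array B, and 69.3 and 139 on array C. A second OR5L2 probe set, 1567286_at, had a median of 14.3 and was above the median of all probe sets in 0 scans. The 2 probe sets differed by at least 1.98 times in every scan, so the annotated gene itself had no single level.

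The class I receptor OR51B2 (234486_at) was the third. Its signals were 175 to 393 on array A, 53.6 to 197 on array B, and 59.8 and 82.8 on array C, and on B4 it was only just above the median of all probe sets. OR51B5 (234775_at) and OR52D1 (234617_at) completed the 5 with the highest minimum. OR51B5 ranged from 62.4 on B1 to 173 on A5, the smallest ratio of highest to lowest signal in the set (2.77). OR52D1 ranged from 55.0 on C2 to 328 on A1. In RefSeq the OR51B5 gene spans OR51B6, OR51I1, OR51I2, OR51M1 and OR52D1, and signals under these names are uncertain where their probes could bind 1 shared transcript.

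At the other end, 29 OR probe sets (27.1%, against 16.9% of all) were above the median of all probe sets in no scan, and the other 75 were above it in some. The lowest median signals belonged to OR10H2 (5.69), OR3A1 (6.46), OR2K2 (1567273_at, 7.22), OR51B4 (7.84) and OR12D3 (7.99). OR10H2 read 33.6 on A1 and 4.60 on A4, then 15.9 on A5 and 7.31 on A8. Its signals on arrays B and C were between 3.22 and 8.98. For OR51B4, all signals on array B were between 1.89 and 4.40, while A1 read 56.8 and C1 24.1. Each of these 5 had its highest signal on A1, the scan without any stringent wash. So did 39.3% of the OR probe sets and 30.8% of all.

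**Figure D3:**
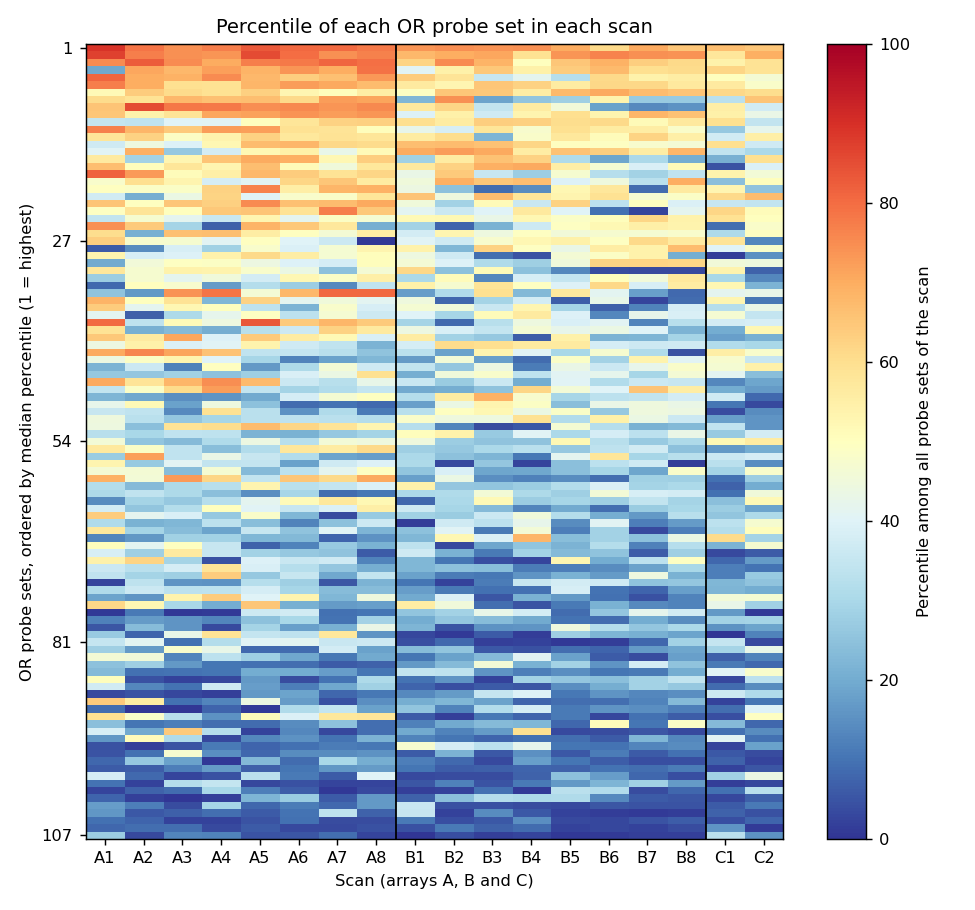
Percentile of each of the 107 OR probe sets (rows, ordered by their median percentile) among all probe sets of each of the 18 scans (columns), with lines between arrays A, B and C. Few rows keep 1 colour across all columns: 3 are above the median of all probe sets throughout and 29 never are.

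Signals of class I and class II receptors overlapped widely. The median percentile of the 14 class I probe sets was 31.4 to 60.2 over the scans and that of class II 26.6 to 36.8, with class I higher in 17 of 18 scans (the exception was B6). Medians of class I probe sets ranged from 7.84 (OR51B4) to 153 (OR51B2), and neighbouring genes of family 51 are not independent. Among families with at least 7 genes, family 10 had the lowest median percentile (14.4) and family 5 the highest (43.4). Probe sets of the 32 genes that overlap another gene had a median percentile of 32.9, and those of the other 50 genes 32.0. No test was made between these groups, since all probe sets share the same 18 scans.

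OR51E1 and OR51E2 were looked at because both are known outside the nose. OR51E1 (229768_at) read 106 to 264 on array A and 22.9 to 102 on array B, with no overlap between the arrays, and 27.4 and 29.7 on array C. It was above the median of all probe sets in 10 scans. The 3 probe sets of OR51E2 had medians of 18.9 (221424_s_at), 20.4 (236121_at) and 40.4 (232482_at) and were above it in 0, 3 and 2 scans.

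Of the 82 genes, 20 had more than 1 probe set. The brightest and the dimmest median signal of a gene differed by 1.08 times (OR10A3) to 13.4 times (OR5L2), with a median of 2.32, and by more than 2 times for 12 genes. OR5L2 was the only one of them with the same probe set brightest in all 18 scans.

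Probe sets for related genes gave levels like these. The 28 probe sets of OR pseudogenes had a median percentile of 27.8 and the 20 of bitter taste receptors (TAS2R genes, another chemosensory receptor family) 29.2, against 32.7 for the OR probe sets and 47.9 over all. Cytosolic ribosomal protein genes, which all growing cells express, had 99.5 over 111 probe sets.

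The OR signals varied more between scans than those of most probe sets. The SD of log2 signal over 18 scans had a median of 1.22 (0.36 to 2.17) for OR probe sets and 0.94 for all. For the 18259 probe sets within the middle quartiles of the OR mean levels it was 1.23, close to the OR value. The highest signal was a median of 20.5 times the lowest, against 10.4 times over all probe sets and 19.3 times at the same brightness.

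Which OR probe set was bright was also poorly shared between arrays. Pearson's r of log2 signal across the 107 probe sets was 0.35 between A3 and B3, 0.45 between A3 and C1 and 0.47 between B3 and C1, scans of 6 to 9 total cycles. Over all 54675 probe sets it was 0.83, 0.82 and 0.86, and over ribosomal protein probe sets 0.97, 0.98 and 0.98. Between C1 (6 total cycles) and C2 (12, after re-staining), scans of the same array, it was 0.54 for the OR probe sets and 0.89 for all. These are correlations across probe sets that share RNA, array and scaling, given as descriptions. The OR levels also span a narrower range than those of all probe sets.

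Array A gave higher OR signals than array B. The median over the 8 scans of array A exceeded that of array B for 96 of 107 OR probe sets (69.1% of all probe sets did so). All 8 signals of array A were above all 8 of array B for 16 OR probe sets (15.0%, against 10.4% of all), and the reverse held for 0 (2.35% of all). Those 16 included OR1I1, OR5L2, OR51B6, OR51E1, OR52D1 and the odorant receptor OR1A1, which had a median of 144 on array A and 11.7 on array B, with a highest signal of 251 on A1. OR2J2 (216818_s_at) had medians of 108 and 5.25.

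On percentiles, which take out the scale of a scan, 2 of those 16, OR1D2 and OR2J2 (216818_s_at), had no overlap in the same direction (1.87%, against 3.5% of all). With 2 total cycles behind both scans, A2 exceeded B1 by a median of 1.04 log2 units over the OR probe sets and 0.39 over all. With 19 total cycles, A6 exceeded B4 by 1.34 and 0.53, but A6 is a re-stained scan with 2 cycles since its last staining and B4 a scan of the first staining with 17. In each comparison 88 of 107 OR probe sets (82.2%) were higher on array A, against 63.2% of all probe sets for A2 over B1 and 66.3% for A6 over B4. The arrays differed in the washes before staining and are single arrays, so array and pre-staining wash cannot be told apart, and between A6 and B4 neither can the second staining and the cycles since staining.

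OR signals were lower after washing on array A, mostly after the first step. From A1 to A2, over 2 cycles, the OR median change was -0.78 log2 units (all probe sets -0.32) and 81 of 107 were lower (75.7%, all 62.7%). The next steps gave -0.40 from A2 to A3 and -0.084 from A3 to A4. Over the 17 cycles from A1 to A4, 85 OR probe sets were lower (79.4%, all 67.1%) and 22 higher, with a median of -0.88 (all -0.61). On array B, which had been washed before staining, the change from B1 to B4 was -0.32 (all -0.27), with 64 lower (59.8%, below the 62.8% of all) and 43 higher.

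In the second series the OR median change from A5 to A8 was -0.53 (all -0.27) and from B5 to B8 -0.29 (all -0.21). OR probe sets were lower in 77 cases on array A (72.0%, all 63.3%) and 75 on array B (70.1%, all 64.0%). The step with the lowest median was A5 to A6 on array A (-0.50) and B6 to B7 on array B (-0.39), and in the last step of both arrays the median was above 0 (0.065 and 0.086), with 59 OR probe sets higher in each. Ribosomal protein probe sets moved the other way on the scaled signals. Their median was 5361 on A1 and 15813 on A4. Each scan is scaled to the same mean, so a lower OR signal is lower relative to brighter probe sets, and loss of bound RNA was not measured apart from it.

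limma was used to test 17 against 0 additional cycles on arrays A and B together, over all 54675 probe sets with Benjamini-Hochberg adjustment. At an adjusted p below 0.05 it called 0 OR probe sets in the first series and 0 in the second, where 0.0% of all probe sets were called. At an unadjusted p below 0.05 the first series had 2 OR probe sets higher and 16 lower (all probe sets 3.5% and 13.9%). The second had 2 higher and 14 lower (2.55% and 11.6%). Each fit rests on 2 arrays. A fit with a variance trend and robust moderation called 2 OR probe sets lower in the first series, OR2F2 and OR51E2 (236121_at), where 1.21% of all were called lower, and 0 in the second, where 0.448% were. The 2 of 107 are thus near the share over all probe sets.

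The OR median change of these fits relative to that of all probe sets was -0.35 in the first series and -0.19 in the second. For the bitter taste receptor probe sets it was -1.14 and -0.62, and for the OR pseudogenes 0.089 and 0.035. A value below 0 was thus not particular to the OR probe sets. Both OR values were smaller in size without the first scan of array A. Leaving it out left 0 additional cycles on array B only, so that scan and its array cannot be told apart. Without A5 the second value was -0.078, while array A alone gave -0.27 and array B alone -0.078. Without A1 the first was -0.061, while array A alone gave -0.27 and array B alone -0.049. The value of -0.35 from both arrays is below each of these. A median over averages of both arrays need not lie between the medians of the single arrays. The interaction of series and washing called 0 OR probe sets, as it did 0.0% of all, with 4 OR probe sets higher and 2 lower at an unadjusted p below 0.05 (4.91% and 2.58% of all).

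The lowest value in the first series was that of OR2F2 (217302_at). Its signals were 200, 116, 36.8 and 19.2 on A1 to A4 and 79.0, 50.0, 6.14 and 3.55 on B1 to B4, lower at each step on both arrays. The fitted log2 change was -3.93 (SE 0.48, adjusted p = 0.192). After re-staining it read 184 on A5, 24.0 on A6 and 18.3 on A8, but 8.79, 13.9, 7.70 and 7.20 on B5 to B8.

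OR51E2 (236121_at) followed with -3.64 (SE 0.75, adjusted p = 0.192). It read 159, 163, 34.7 and 6.59 on A1 to A4 and 16.9, 7.79, 3.83 and 2.61 on B1 to B4. The other OR51E2 probe sets had changes of -0.90 and -1.08. The change of OR51M1 was -3.10 (SE 0.64), from 218 to 56.8 on array A and from 80.2 to 4.19 on array B.

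The largest values in the other direction were for OR4D2 (1.96, SE 0.52), OR5I1 (1.54, SE 1.30) and OR51I2 (1.33, SE 0.50), with adjusted p of 0.217, 0.556 and 0.284. OR4D2 read 72.1, 101, 132 and 193 on A1 to A4, while on array B it stayed between 14.1 and 16.4 until 82.8 on B4. In the second series its change was -0.018. OR5I1 was at 3.02 on B1 and 39.5 on B4 but went from 63.3 to 41.2 on array A.

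In the second series the lowest values were OR7A10 (-2.64, SE 1.30), OR2C3 (-2.09, SE 0.43) and OR2H1 (1567656_at, -1.96, SE 0.34), with adjusted p of 0.410, 0.329 and 0.329. OR7A10 rested on 1 scan, as it read 111, 62.0, 49.0 and 3.17 on A5 to A8 and 74.7, 58.7, 80.4 and 67.1 on B5 to B8. OR2H1 was lower on both arrays, from 128 to 22.6 and from 80.5 to 30.1. The highest were OR52A1 (1.40, SE 0.53), OR1A1 (1.22, SE 0.53) and OR5H1 (1567247_at, 1.21, SE 0.93). The other OR5H1 probe set had a change of -1.80.

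Arrays A and B were also compared for the direction of the change in each OR probe set. In the first series 48 OR probe sets were lower on both arrays (44.9%, against 44.5% of all probe sets), 6 were higher on both (5.61%, all 14.7%) and 53 moved in opposite directions (49.5%, all 40.8%). The first series thus had no larger share of one direction on both arrays among OR probe sets than over all. In the second series 60 were lower on both (56.1%, all 43.8%), 15 higher on both (14.0%, all 16.4%) and 32 opposite (29.9%, all 39.8%). The size of the change on array A had little relation to that on array B across the 107 probe sets. Pearson's r was -0.0092 in the first series and 0.030 in the second, and Spearman's rho was -0.085 and 0.16.

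**Figure D4:**
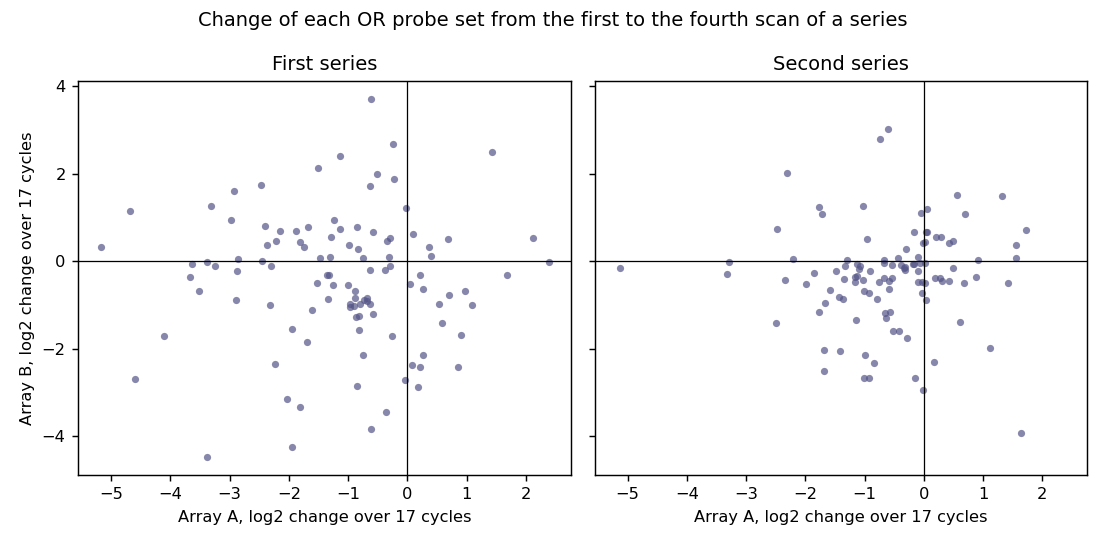
Log2 change of each of the 107 OR probe sets over 17 additional cycles on array A (horizontal) and array B (vertical), for the first and the second series. In the first series 48 points lie below 0 on both axes and 53 have opposite signs, and no trend across the points is seen (r = -0.0092 and 0.030).

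After re-labelling, the OR probe sets as a whole had a median change near 0 relative to all probe sets. Between the last scan of the first series and the first of the second the OR median change was 0.68 log2 units on array A (A4 to A5, all 0.29) and 0.25 on array B (B4 to B5, all 0.21). Total cycles were 17 at both A4 and A5, but 19 at B4 and 21 at B5. With scans paired by array and washing step, the 9 pairs gave OR medians relative to all probe sets of -0.22 (A1 to A5) to 0.33 (C1 to C2), with an SD of 0.20. Within every pair the second scan also followed more total cycles and scans, as with 17 cycles at A5 and 0 at A1. The second staining cannot be told apart from these within the pairs. The OR median was above that of all probe sets in 4 of 9 pairs. In the limma fit over all 9 pairs it was -0.023 relative to all, with 48 OR probe sets above 0 and 59 below.

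That fit called 0 OR probe sets at an adjusted p below 0.05, where 0.836% of all probe sets were called (0.294% higher and 0.541% lower). At an unadjusted p below 0.05 there were 11 OR probe sets higher and 11 lower, against 8.34% and 11.3% of all. Adding 16 to every signal before the logarithm called 1 OR probe set lower, OR4D1, and 1.11% of all. The fit with a variance trend and robust moderation called 2, OR4D1 and OR1Q1 (1567064_at), and 1.83% of all. Both counts are near the share over all probe sets. The 9 pairs are scans of 3 arrays and are not independent. With the array as the unit, the fit called 0 of all probe sets.

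OR4D1 (1567069_at) came nearest to the threshold, with a log2 change of -2.05 (SE 0.42, adjusted p = 0.0549). It was the only OR probe set lower in all 9 pairs, as 2.2% of all probe sets were. It read 175, 96.9, 105 and 97.8 on A1 to A4 and 103, 73.0, 27.4 and 76.9 on A5 to A8. On array B it read 102, 18.4, 59.5 and 14.1 and then 9.91, 4.43, 3.38 and 3.28, and on array C 58.9 and 5.67. The ratio between the series was thus larger on arrays B and C than on A. Its adjusted p ranged from 0.0271 to 0.777 over 18 alternatives, and the second OR4D1 probe set, 1567068_at, had a change of -0.43 (SE 0.26).

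For OR1Q1 and OR5J2 the extreme was likewise held by 1 probe set of the gene. The change of OR1Q1 was -1.93 with 1567064_at (SE 0.52, adjusted p = 0.0992) and 0.039 with 1567065_at. OR5J2 (1567244_at) had the highest value, 1.54 (SE 0.42, adjusted p = 0.0996), and was higher in 7 of 9 pairs, while 1567245_at had -0.12. OR51E1, which has 1 probe set here, was higher in 8 of 9 pairs by a smaller amount, 0.32 (SE 0.13, adjusted p = 0.233). Changes below 0 were also seen for OR51I1 (-1.42, SE 0.51), OR14J1 (-1.22, SE 0.36) and OR1D2 (-1.21, SE 0.36). Each of them has 1 probe set here and was lower in 8 of 9 pairs, with adjusted p of 0.169, 0.120 and 0.122. Both OR1J4 probe sets were lower in 7 of 9 pairs. Their changes were -0.986 (1567282_at, SE 0.26, adjusted p = 0.0926) and -0.999 (1567284_at, SE 0.63, adjusted p = 0.405).

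**Figure D5:**
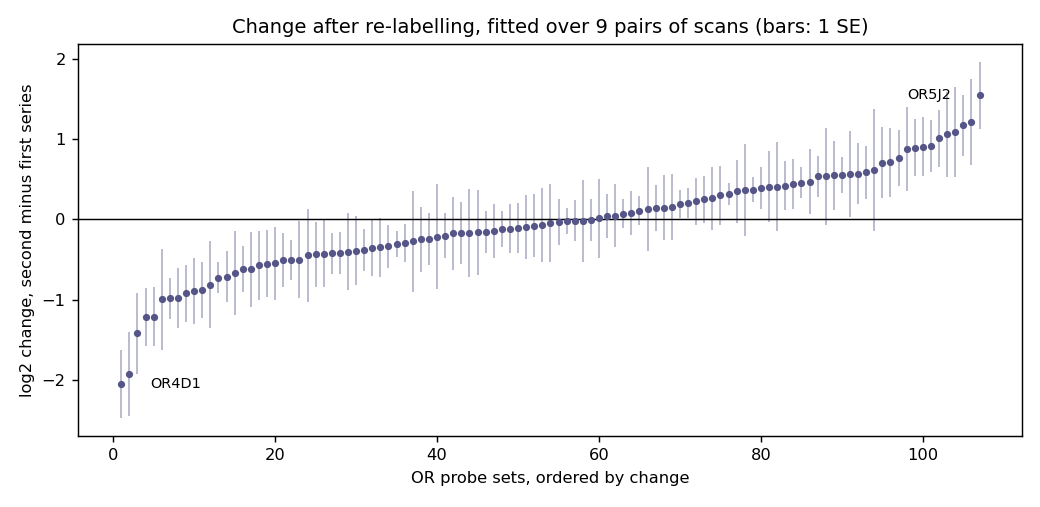
Fitted log2 change of each of the 107 OR probe sets after re-labelling (second minus first series, 9 pairs of scans), in order of size, with bars of 1 SE. Values run from -2.05 (OR4D1) to 1.54 (OR5J2), 48 are above 0, and none passed an adjusted p of 0.05.

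Genes that serve olfactory receptors in sensory neurons were compared as a second list of 15 genes, of which 13 had 27 probe sets. CNGA2 and the receptor transporter RTP2 had none among those used. Their median percentile was 39.5, against 47.9 over all. Above the median of all probe sets in all 18 scans were 3 of 27 (11.1%, against 26.7% of all). These were both of ADCY3 (162 to 519) and one of the transcription factor EBF1 (227646_at, 469 to 716), genes that other cell types use as well.

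The defining marker of mature olfactory neurons, OMP, read 3.60 to 34.1 and was above that median in no scan. The receptor transporter RTP1 had a median of 11.6 with one probe set and 71.6 with the other. The 4 probe sets of GNAL had medians between 24.1 and 61.1. The list was thus mixed, with OMP dim throughout and both ADCY3 probe sets above that median in every scan. None of the 27 probe sets was called after re-labelling, where 0.836% of all probe sets were, so this count says little about the list.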

How the data were processed

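The data are MAS5 signals of 18 scans, made and deposited by the authors as a single value table. MAS5, named in the submitters' processing notes without a version, summarises each probe set's perfect match and mismatch probes and scales each scan. Detection calls were not used here. Groups came from the array, series and cycle numbers in the labels. Scans of 1 array are repeat scans, and pairs of equal array and step are the same physical array, so the replicate block is given by the design. Gene symbols came from the platform annotation, neighbours and overlaps from RefSeq (GRCh38.p14).

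Log2 signals without an offset were fitted with limma 3.58.1 (lmFit, eBayes) in R 4.3.3 over all 54675 probe sets. The series contrast had pairs of array and step as a block, the washing contrasts the array as a block and the step as a factor. Benjamini-Hochberg adjustment ran over all probe sets at a threshold of 0.05. The re-labelling, first-series washing and interaction fits were also run on simulated data with independent noise in each scan. Such data cannot show how the p-values behave for repeat scans of the same array. Percentiles and figures used Python 3.11.15, pandas and matplotlib.

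The members, gene lists and tests were chosen with earlier results of these data known. Named genes were the 5 highest minima, the 5 lowest medians, the 3 largest rises and falls with washing in each series, OR51E1, OR51E2, OR2F2 and any calls after re-labelling (none). OR4D1, OR1Q1, OR5J2, OR51I1, OR14J1, OR1D2, OR1J4 and the lists of bright probe sets were chosen after their values were seen. The number of arrays limits the precision: 3 for re-labelling and 2 for washing. Alternatives were no block, other scalings, an offset of 16, robust moderation with a trend in the variance, only probe sets brighter than the median, and leaving out scans, pairs or arrays.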

Additional observations from a re-analysis of the deposited data

How the results depend on the processing

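The count of 0 OR probe sets called in each of the 4 fits held under the alternatives run, with 3 exceptions. After re-labelling, the offset of 16 called 1 lower and the variance trend with robust moderation 2 lower, and that trend also called 2 lower with washing in the first series. Without the replicate block the 4 counts stayed at 0, and the re-labelling calls over all probe sets were 24 higher and 99 lower, against 161 and 296 with it. Over all alternatives those 2 ranged from 0 and 0 (without array B, or with the array as the unit) to 836 and 998 (variance trend). They were 11 and 18 without the pair A3 and A7. For washing over all probe sets, the trend called 1954 higher and 661 lower in the first series, 1301 and 245 in the second, and 21 and 757 for the interaction. Only probe sets brighter than the median gave 542 and 163 in the first series. The cause was not tested.

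The OR median change relative to all probe sets over washing in the first series was -0.17 with the offset and -0.20 after quantile normalization. It ranged from -0.27 to -0.049 with either array left out. In the second series it was -0.078 without scan A5, -0.026 after quantile normalization and -0.050 with 1 probe set per gene. The interaction value, 0.42, ranged from -0.19 to 0.20 on single arrays and was -0.039 without scan A1 and 0.088 without B5. The mean over scans of the median OR percentile, 32.3 and 32.8 in the series, was 35.9 and 36.4 with the brightest probe set of each gene, which picks higher values by construction. With 1 scan left out, OR5I1 ranged from -0.72 (without B1) to 3.81 in the first series and OR5H1 from -0.17 (without B8) to 2.59 in the second. With 2 arrays, changes of dim probe sets near background are limited by array number.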

Other observations

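A further 8 probe sets list an OR symbol beside other symbols and were not counted as members. The one shared by OR1E1 and OR1E2 (208587_s_at) ranged from 2.83 to 238 with a median of 74.3 over 18 scans. The one shared by OR3A3, OR1E1 and OR1E2 (234781_at) had a median of 72.3, and both were above the median of all probe sets in 11 scans. The probe set shared by OR2F1 and OR2F2 (208525_s_at) was the dimmest, with a median of 7.93 and a highest signal of 34.5, while OR2F2's own probe set reached 200 on A1. The other 5 had medians between 9.79 and 62.8.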
